A study of Mus musculus with 6 samples.

Results

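mmu-miR-143-5p and mmu-miR-10a-3p (below without the species prefix) were followed in small RNA libraries of mouse myoblasts with and without myostatin. They are 2 of the 49 mature miRNAs in the table analysed here. They were chosen by name as usually minor arms of their hairpins that are listed there without the major arms. This trait is not particular to them as far as the listing goes, since 29 of the 49 rows, the members among them, had no partner arm listed. C2C12 cells, an established mouse myoblast line, were compared as 3 libraries labelled WT (wild type) and 3 labelled MSTN-KO, whose myostatin gene had been cut with CRISPR/Cas9, all made from total RNA. All are labelled as skeletal muscle myoblasts, and the knockout is a single line derived from these cells. The strain field reads C11 for all 6 libraries, a name the study uses for its knockout line, and the transcript of myostatin itself was not analysed, so the groups rest on the sample titles and genotype labels. WT and MSTN-KO below mean the libraries labelled so. As labelled, miR-148a-3p, miR-206-3p, miR-130b-3p, miR-335-3p and miR-335-5p were lower in the MSTN-KO libraries, and miR-139-5p was higher. The article reports the opposite direction in the knockout for each of these miRNAs, by qRT-PCR for some of them. Its total counts of raised and lowered miRNAs differ between sections. A section gives 35 raised and 14 lowered, the reverse of the 14 higher and 35 lower in the list as labelled. Another section gives more lowered than raised miRNAs. The directions as labelled thus conflict with the article, and whether the group labels were exchanged was not tested. An exchange would turn the direction of every difference between the groups given below, including those of both members. The labels do not say whether the libraries of a group came from separate cultures, so the spread between them may be technical.

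A miRNA is cut from a hairpin precursor, which releases a short duplex of a 5p and a 3p arm. An Argonaute protein usually keeps 1 arm as the guide that recognises messenger RNAs, and the other arm is mostly degraded, so that it accumulates at a lower level. miR-143 is made together with miR-145 and is known as an abundant miRNA of smooth muscle, fibroblasts and other mesenchymal cells, where the 3p arm is the usual guide. miR-10a lies inside the Hoxb cluster, whose genes set position along the body axis, and its 5p arm is the usual guide.

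The hairpins lie on different chromosomes (GENCODE M21, GRCm38). Mir143 is on the minus strand of chromosome 18 (61649196 to 61649258, 63 bases). It overlaps no other annotated gene, starts 366 bases beyond the end of the long noncoding RNA Carmn on the same strand, and is followed on that strand by Mir145a after 1301 bases. Mir10a is on the plus strand of chromosome 11 (96317165 to 96317274, 110 bases). It also overlaps no other annotated gene, and lies between Hoxb5, which ends 11043 bases before it, and Hoxb4, which begins 992 bases after it, all on the same strand.

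**Figure D1:**
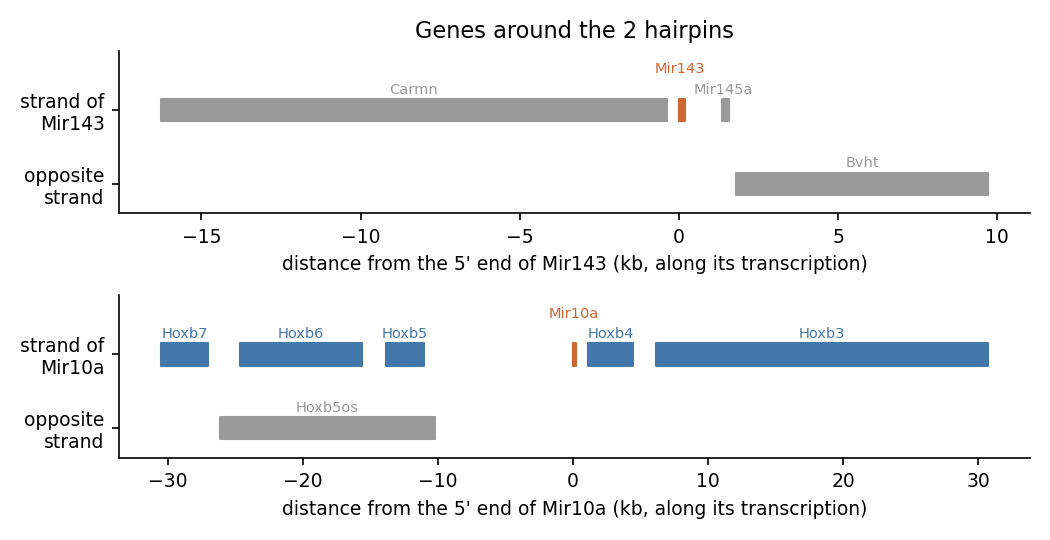
Genes around Mir143 (upper panel) and Mir10a (lower panel), plotted by distance in kb from the 5' end of the hairpin along its direction of transcription, on its own or the opposite strand. Both hairpins (orange) and Mir145a, drawn wider than they are so that they can be seen, lie outside the protein-coding (blue) and noncoding (grey) genes; not every gene in the windows is drawn. Mir10a sits 992 bases before Hoxb4.

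The sequence of miR-10a-3p is shown beside its other arm and beside the arms of Mir10b, its paralog in the Hoxd cluster, because reads of near-identical arms can be hard to assign. Sequences are from a RefSeq table (GRCm38.p6), in which 1 of the 2 members was matched, are written 5′ to 3′, and carry the seed (bases 2 to 8), the stretch that pairs with target messages, in capitals.
miR-10a-3p: cAAAUUCGuaucuaggggaaua
miR-10b-3p: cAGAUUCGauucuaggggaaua
miR-10a-5p: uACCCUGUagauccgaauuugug
miR-10b-5p: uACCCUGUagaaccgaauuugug
miR-10a-3p (chromosome 11, 96317227 to 96317248) and miR-10b-3p share 19 of 22 bases. Counted from the 5′ end of miR-10a-3p, the substitutions are A3G, U9A and A10U, so the 3p seeds differ. The 5p arms differ by U12A alone and have the same seed. Among 1679 mature names in that table, 0 others had the seed of miR-10a-3p, and the most similar mature sequence was miR-10b-3p. Of the 49 listed miRNAs 32 had a sequence there, and 0 of them shared the seed. How many mismatches the authors' alignment allowed is not given in the sources used here.

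In the Mir10a hairpin below, the capitals mark miR-10a-3p, bases 63 to 84, to show the listed arm in its precursor.
Mir10a: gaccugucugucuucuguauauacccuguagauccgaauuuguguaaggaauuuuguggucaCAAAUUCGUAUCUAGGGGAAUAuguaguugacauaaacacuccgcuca
The 5p arm occupies bases 22 to 44, with 18 bases between the arms. In the minimum free energy fold (RNAfold, -34 kcal/mol) 20 of the 22 bases of miR-10a-3p were paired, 18 of them to the 5p arm, and 7 of its 7 seed bases were paired. This fold is computed from the reference and is no measurement on these cells.

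The libraries held between 5502214 and 11823489 reads, as inferred from the smallest step of the deposited values (RPM, reads per 1000000 library reads), and the ranges of the groups overlapped. Together the 49 listed miRNAs took from 2.11% to 3.47% of a WT library and from 0.773% to 1.26% of an MSTN-KO library. No unselected background exists in the table, since WT and MSTN-KO values were apart for all of the 49. Of the skeletal muscle markers 6 of 7 were listed and none was at 0 in any library. Their summed level ran from 18977 to 32560 RPM over the libraries labelled WT and from 6319 to 11068 RPM over those labelled MSTN-KO. Without miR-206-3p, the largest of them, the sums ran from 651 to 1009 and from 176 to 302 RPM. Markers of other cell types were listed in 0 of 6 cases for mesenchyme and smooth muscle, 0 of 5 for blood, 0 of 2 for endothelium, 0 of 3 for epithelium and 0 of 1 for liver. Since every listed row separates the groups, a marker at similar levels in both would not be listed. An unlisted marker may therefore be present, and these counts do not establish which cells were there. The 1 of 3 nervous system markers that was listed, miR-9-3p, ran from 3.85 to 4.37 RPM in WT libraries and from 10.4 to 11.8 RPM in MSTN-KO libraries. The part of these marker levels in the values below was not tested. In RNA from bulk cultures, a change in the share of cells that make a miRNA and a change in its amount per cell cannot be told apart.

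mmu-miR-143-5p was the more abundant member in each library. It was at 53.6, 74.0 and 90.5 RPM in WT replicates 1, 2 and 3, from 348, 508 and 1070 reads. In MSTN-KO replicates 1, 2 and 3 it was at 174, 222 and 190.3 RPM, from 960, 2116 and 1657 reads. Each MSTN-KO library lay above each WT library, and the lowest MSTN-KO value was 1.93 times the highest WT value. The WT mean was 72.7 ± 18.5 RPM and the MSTN-KO mean 195 ± 24.0 RPM (SD, n = 3 each), a ratio of 2.69. The 95% Wilson intervals, which cover counting error only, reached up to 96.1 RPM in WT replicate 3 and down to 164 RPM in MSTN-KO replicate 1.

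mmu-miR-10a-3p was rarer and had the same direction. WT replicates 1, 2 and 3 had 13.1, 13.3 and 11.7 RPM, from 85, 91 and 138 reads. MSTN-KO replicates 1, 2 and 3 had 24.9, 32.6 and 30.3 RPM, from 137, 311 and 264 reads. Again no MSTN-KO library fell into the WT range, and the lowest MSTN-KO value was 1.88 times the highest WT value. The WT mean was 12.7 ± 0.873 RPM and the MSTN-KO mean 29.3 ± 3.95 RPM (SD, n = 3 each), a ratio of 2.31. Its 95% Wilson intervals reached up to 16.3 RPM in WT replicate 2 and down to 21.1 RPM in MSTN-KO replicate 1.

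**Figure D2:**
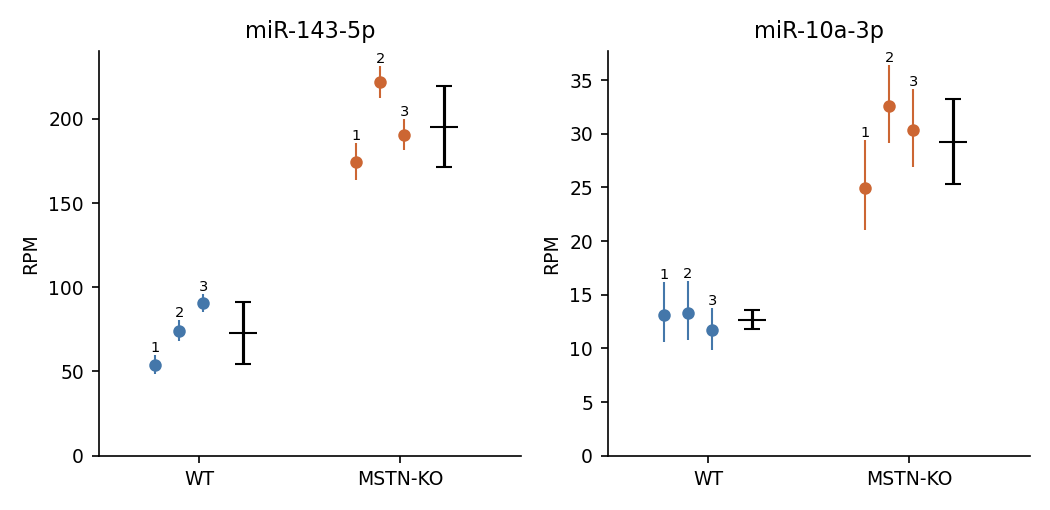
RPM of miR-143-5p (left) and miR-10a-3p (right) in each library, numbered by replicate, with 95% Wilson intervals for counting error; black marks give the group mean ± SD (n = 3). The groups are apart for each arm, at 53.6 to 90.5 against 174 to 222 RPM and at 11.7 to 13.3 against 24.9 to 32.6 RPM.

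Both members thus belonged to the 14 listed miRNAs that were higher, without overlap, in the libraries labelled MSTN-KO, 28.6% of the list, beside 35 that were lower. Since non-overlap in either direction held for 100% of the list, the separation of the groups is part of how the rows came to be listed, and it is described here without a test. On the log2(RPM + 1) scale the difference was 1.44 ± 0.24 for miR-143-5p and 1.14 ± 0.19 for miR-10a-3p (MSTN-KO minus WT, SE from limma). These placed them at numbers 7 and 11 of the 14 in order of size, which spanned 1.05 to 2.18 with a median of 1.37. Over all 49 the median difference was -1.07. When the libraries were rescaled on the listed miRNAs in 3 ways, that median moved up by 0.92 to 1.23. The log2 differences of the members then grew from 1.44 to between 2.21 and 2.86 for miR-143-5p and from 1.14 to between 1.84 and 2.49 for miR-10a-3p. Their size therefore depends on the denominator. Since each rescaling moved the listed rows upward, it could not turn rows that were already higher and says nothing of the stability of their direction.

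**Figure D3:**
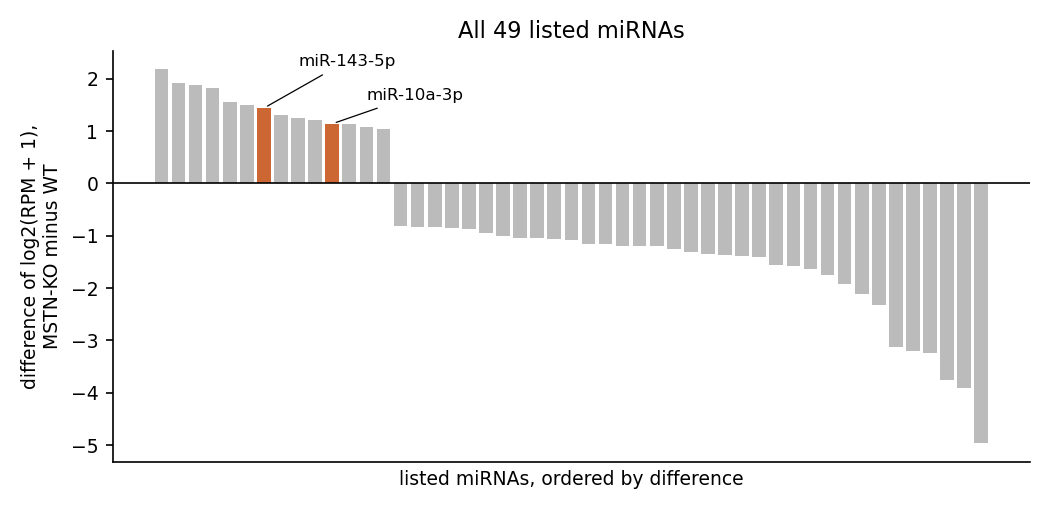
Difference of mean log2(RPM + 1), MSTN-KO minus WT, for each of the 49 listed miRNAs as bars in order of size. miR-143-5p (1.44) and miR-10a-3p (1.14), in orange, stand among the 14 bars above 0, while 35 lie below.

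The spread within groups differed between the arms. In the WT group the SD of miR-143-5p was 25.4% of its mean, where counting error alone would give 4.10%, and its highest value was 1.69 times its lowest. The SD of miR-10a-3p in the same libraries was 6.89% of its mean, below the 10.1% that counting error would give. The WT libraries therefore showed no spread of miR-10a-3p beyond counting at this depth, whereas miR-143-5p varied 6.19 times as much as counting predicts. In the MSTN-KO group the arms were alike, with an SD of 12.3% of the mean for miR-143-5p and 13.5% for miR-10a-3p, which were 4.75 and 2.02 times the counting error. Set among all listed rows on the log2(RPM + 1) scale, the WT SD of miR-143-5p (0.37) exceeded that of 38 others and the list's median of 0.25. The WT SD of miR-10a-3p (0.094) exceeded that of 5.

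The arms did not follow each other from library to library in the WT group. Relative to the group mean of log2(RPM + 1), WT replicate 1 stood at -0.40 for miR-143-5p and at 0.046 for miR-10a-3p. WT replicate 3 stood at 0.34 and -0.11. In the MSTN-KO group replicate 1 was the lowest for each arm (-0.16 and -0.22) and replicate 2 the highest (0.19 and 0.16).

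The ratio of miR-143-5p to miR-10a-3p reads does not use the library total. It compares reads of different sequences, which can be captured unequally, so it is compared between libraries and is not a ratio of molecules. It was 4.09, 5.58 and 7.75 in WT replicates 1, 2 and 3 and 7.01, 6.80 and 6.28 in MSTN-KO replicates 1, 2 and 3. The groups overlapped: the highest ratio of all was that of WT replicate 3, and the other two WT libraries lay below every MSTN-KO library. By exact Clopper-Pearson 95% intervals, WT replicate 1 (3.22 to 5.25) and WT replicate 3 (6.49 to 9.33) were apart from each other, while the 3 MSTN-KO intervals, which together spanned 5.51 to 8.44, overlapped one another. miR-143-5p made up 84.6% ± 4.11 of the reads of both arms in WT libraries and 87.0% ± 0.651 in MSTN-KO libraries (SD, n = 3). The SD was 2.76 times the counting error for WT and 0.783 times for MSTN-KO.

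The log2 ratio (of RPM + 1) was 2.40 ± 0.45 for WT and 2.70 ± 0.079 for MSTN-KO (SD, n = 3). The difference was 0.30 with a standard error of 0.26, which is less than the spread between the WT libraries. Adding 1 RPM brings the library total back into this measure. Without a pseudocount the difference was 0.25, and with a pseudocount of 10 it was 0.54. The difference was 0.076 without WT replicate 1 and 0.53 without WT replicate 3, and 0.12 when the reads of a group were summed first. The 3 libraries per group thus do not resolve whether the arms differed in their change, and equal change was not shown either.

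**Figure D4:**
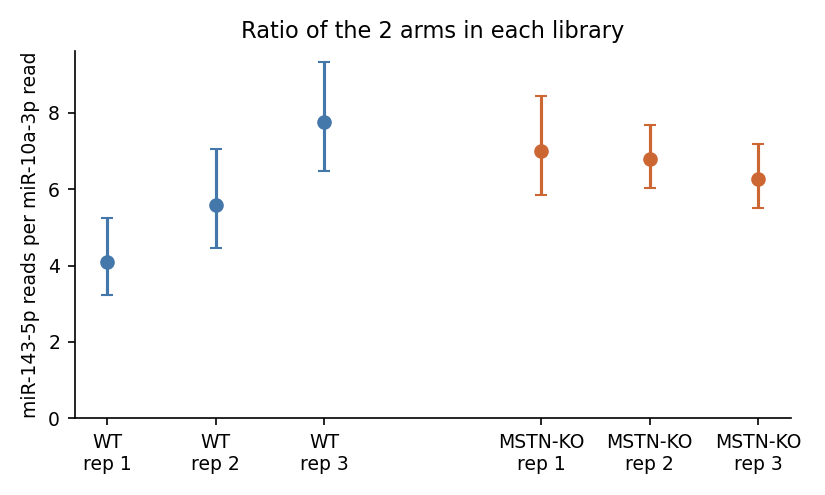
miR-143-5p reads per miR-10a-3p read in each library, with exact 95% intervals for counting error. The WT libraries (blue) range from 4.09 to 7.75 and enclose the narrow MSTN-KO range (orange) of 6.28 to 7.01.

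In order of mean level, miR-143-5p was number 11 of the 49 rows among WT libraries and number 4 among MSTN-KO libraries. In the WT group its values overlapped those of the rows next to it, miR-139-5p above (89.5 ± 15.9 RPM) and miR-130b-5p below (65.4 ± 9.94 RPM). In the MSTN-KO group it overlapped neither miR-181d-5p above (373 ± 16.1 RPM) nor miR-486a-5p below (132 ± 28.5 RPM). miR-10a-3p stood at number 21 for WT and at number 12 for MSTN-KO (SD, n = 3 throughout). It overlapped its neighbours in each, miR-335-5p (15.3 ± 3.21 RPM) and miR-206-5p (11.9 ± 1.44 RPM) for WT and miR-133a-3p (39.0 ± 14.0 RPM) and miR-148a-3p (26.1 ± 6.51 RPM) for MSTN-KO. The members together made up from 0.245% to 0.485% of the listed RPM in the WT libraries and from 2.02% to 2.58% in the MSTN-KO libraries. Most of the listed RPM in each library was miR-206-3p, with means of 24841 RPM for WT and 8479 RPM for MSTN-KO. These shares therefore also reflect the level of that row.

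Rows with the most similar course over the 6 libraries were sought by the root mean square difference of log2(RPM + 1) after subtracting each row's mean. The nearest to miR-10a-3p was miR-9-3p, an arm of a miRNA best known from the nervous system, at 0.10. The following rows were miR-193b-5p (0.20) and miR-33-5p (0.22), the former at 0.174 ± 0.232 RPM for WT and 1.39 ± 0.114 RPM for MSTN-KO. The nearest to miR-143-5p were miR-139-3p (0.23), miR-9-3p (0.23) and miR-33-5p (0.24), all farther away than the nearest row of miR-10a-3p. The members were 0.30 apart from each other, and miR-10a-3p was number 7 in the order of rows nearest to miR-143-5p. miR-139-3p is itself the rarer arm of its hairpin in this table, at 3.63 ± 0.854 RPM for WT and 16.0 ± 2.30 RPM for MSTN-KO (SD, n = 3). miR-33-5p, which lies within a gene of sterol regulation, was at 1.17 ± 0.0949 and 4.45 ± 1.17 RPM. This measure is mostly set by the difference between the groups, which all listed rows have. Adding 1 RPM also compresses the differences of low rows such as miR-193b-5p, which was at 0 RPM in WT replicate 1. The closeness of such rows depends partly on that setting.

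**Figure D5:**
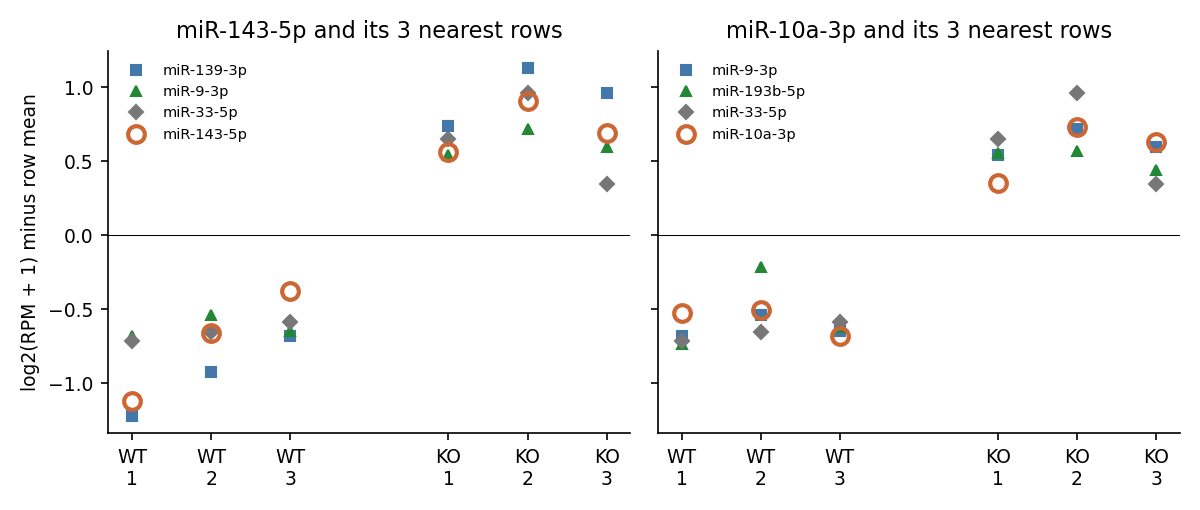
log2(RPM + 1) minus the mean of the row in each library, for miR-143-5p (left) and miR-10a-3p (right), as open circles, and the 3 listed rows nearest to each. miR-10a-3p and miR-9-3p (distance 0.10) lie close together, least so in MSTN-KO replicate 1, whereas miR-143-5p lies low in WT replicate 1.

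The major arms, miR-143-3p and miR-10a-5p, were not analysed here, and of 18 related arms looked for (the miR-143 and miR-145 arms, miRNAs of the Hox clusters and the wider miR-10 family) 0 were listed. The levels of miR-143-5p and miR-10a-3p can therefore not be set against those of the other arm of their hairpins. For comparison, 10 other hairpins had both arms in the table. In all 10 the arms lay on the same side of the comparison, which the listing of rows without overlap allows but does not require. Their differences nonetheless stood apart by 0.080 to 2.50 on the log2 scale, with a median of 0.87. The rarer arms of these hairpins averaged 0.784 to 20.9 RPM over all libraries, with the abundant arm from 4.08 to 1935 times higher. Rarer was judged by level in this table alone, so these arms need not be the usually minor ones. By their own means over all libraries, miR-143-5p (134 RPM) lay far above that range of rarer arms and miR-10a-3p (20.97 RPM) just above its upper end.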

How the data were processed

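Small RNA of 3 WT and 3 MSTN-KO libraries was analysed from the deposited tables. The authors deposited RPM values, scaled to 1000000 reads of the library. The article speaks of FPKM, but within a tolerance of 0.01 each nonzero value (100% in every library) was a whole multiple of the same step, with no length in the scaling. The inverse of the step was taken as the library total, and the reads given above are inferred from it. They were used for counting error, for the ratio and percentage of the arms and for the chi-square below. 3 reads correspond to 0.254 to 0.545 RPM. The submitters' processing notes name Bowtie 0.12.2 and mm8 without their role, and the counting tool and miRNA catalogue are not given in the sources used here.

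Groups were taken from the titles. log2(RPM + 1) was fitted over all 49 rows (each at 1 RPM or more in at least 1 library) with limma 3.58.1 in R 4.3.3, without covariates. The fit was also run on simulated counts in which most rows were unchanged. As all rows here separate the groups, that run does not bear on the values of the members. As the rows were listed on this contrast, no p-value is given for the members. Intervals were computed with scipy 1.17.1 and the fold with RNAfold 2.7.2. Intervals cover counting error alone, as reads are not molecules where identifiers are lacking. Libraries of a group were not copies of each other (chi-square over the listed reads at least 456 on 47 degrees of freedom), so each counted once.

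The members and lists were chosen with earlier results of these data known. The text names the members, the 3 rows nearest to each in course, the rows next to them in level, and listed rows of the related-arm and marker lists. Alternatives were other pseudocounts, filters, rescalings, a mean-variance trend, a replicate block and leaving out each library.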

Additional observations from a re-analysis of the deposited data

How the results depend on the processing

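With the groups as labelled, both members were higher in the MSTN-KO group under all 15 alternatives each, but none of these could have turned the direction. As the groups do not overlap for either member, other pseudocounts and leaving out a library keep the sign. The filters, the trend and the replicate block leave the difference itself unchanged, and the 3 rescalings raise rows that were already higher. The alternatives also do not address the group labels, an exchange of which would turn the direction. The differences of miR-143-5p and miR-10a-3p were 2.56 and 2.21 under median-of-ratios rescaling, 2.86 and 2.49 after rescaling to the listed total and 2.21 and 1.84 under quantile normalization. These rescalings shift the median of all listed rows up by 0.99, 1.23 and 0.92, since most rows were lower in the MSTN-KO group. The listed total is mostly miR-206-3p, so rescaling to it largely follows that row. A pseudocount of 10 gave 0.79 for miR-10a-3p, because it compresses low values. Leaving out each library in turn gave 1.24 to 1.61 for miR-143-5p and 1.06 to 1.25 for miR-10a-3p. For the log2 ratio the 12 alternatives ran from 0.076 without WT replicate 1 to 0.54 with a pseudocount of 10. For the percentage of miR-143-5p the difference of 2.40 points ran from 0.293 without WT replicate 1 to 4.40 without WT replicate 3.

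In the fit with a replicate block the differences were 1.44 and 1.14, with standard errors of 0.19 and 0.17. The log2 ratio differed by 0.30 and the percentage by 2.40 points. As the replicate numbers are balanced over the groups, a block cannot change these differences, only the standard errors. Deviations of same-numbered libraries correlated by 0.0047, 0.22 and 0.056, and 3 of 6 libraries correlated best with their own number, so the numbers were not taken to pair the libraries. A count model on reads was not run, because with so few low values per column the reads were treated as inferred from the step. The intervals, counting errors and chi-square above rest on the same inferred reads, whereas the ratio of the arms is the same from RPM. Counting error limits miR-10a-3p most, with 85 to 138 reads per WT library.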
